A study of Avicennia germinans with 18 samples.

Results

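The 100 transcripts described here are those with the prefix non_cod that gained most, in absolute terms, in stems of arid-forest seedlings of the mangrove tree Avicennia germinans (Acanthaceae). They were taken from 17967 transcripts with that prefix, in a table of 47821 transcripts. Levels were read counts divided by the library total and scaled to counts per M reads (CPM, with M for mega). The 150 rows with the highest mean CPM over the 9 humid libraries were left out, and the remaining rows were ranked by the mean CPM of the 3 arid stems minus that of the 3 humid stems. The stem values therefore chose the members, and they are given below as a description, with no test. The humid leaf and root levels entered the choice too, through the ceiling that removed the 150 rows.

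RNA was sequenced from leaves, stems and roots of 3 seedlings from an arid and 3 from a humid forest, which stood apart in salt, light, temperature and the supply of freshwater. The 6 groups were arid and humid stems, arid and humid leaves, and arid and humid roots, with 3 libraries each. All seedlings germinated and grew in the field, were potted in 3 L of mangrove soil, and then spent 72 h in shade with ample water before harvest, so the arid seedlings were well watered when sampled. The labels give no genotype and no age beyond the seedling stage, and each forest is 1 site, so the effect of a forest and of its site cannot be told apart.

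Stems carry the water-conducting xylem and the sugar-conducting phloem between roots and leaves, and mangroves take up water against the salt of their soil. Avicennia also secretes salt through glands on its leaves. The prefix non_cod is the depositors' own, and no source used here explains it. In plants, RNAs without a long reading frame include regulatory RNAs, precursors of small RNAs and pieces of messenger RNAs that an assembly left incomplete. Which of these the members are cannot be said from the files, which pair the identifiers with neither names nor sequences. For that reason no sequence, gene position or function is given for any of them. Library totals ranged from 3.07 to 23.7 M reads, so that 3 counts, the number a count of 0 allows, corresponded to between 0.127 and 0.979 CPM. Forests and organs are compared below for the same transcript or the same set. Rankings, sums and medians of levels over transcripts used CPM uncorrected for length, since transcript lengths were not available. They therefore depend on transcript length as well.

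The gain in arid stems was carried by few members. The arid minus humid difference was 2640 CPM for the first member, 96.7 CPM for the twelfth, 32.3 CPM at the median and 19.6 CPM for the last. The differences summed to 10241 CPM, of which the first member held 25.8%, the first 4 held 52.6%, and the first 12 held 70.8%. Only 10 members differed by at least 100 CPM, and 76 differed by less than 50 CPM. The ratio of the arid to the humid mean had a median of 2.67 and a lowest value of 1.35. It was below 2 for 29 members, from 2 to 4 for 35, from 4 to 10 for 18 and at least 10 for 16, and the humid stems of the other 2 held no read. At the threshold, non_cod_Ag_47576 was the last member, with 19.0, 102 and 35.8 CPM in arid stems 1, 2 and 3 and 28.6, 44.2 and 24.9 CPM in humid stems. The member before it, non_cod_Ag_2967, had 9.95, 36.0 and 26.5 CPM in arid stems and 7.53, 0.156 and 5.93 CPM in humid stems. The rows just outside were non_cod_Ag_14696, with 55.8, 21.8 and 39.0 CPM in arid stems and 19.1, 15.2 and 24.01 CPM in humid stems, and non_cod_Ag_18705, with 8.68, 32.6 and 27.9 CPM in arid stems and 6.55, 0 and 5.24 CPM in humid stems. The stem values of the rows inside and outside the threshold overlapped. Arid and humid stems overlapped for non_cod_Ag_47576 and non_cod_Ag_14696, and were apart for non_cod_Ag_2967 and non_cod_Ag_18705.

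**Figure D1:**
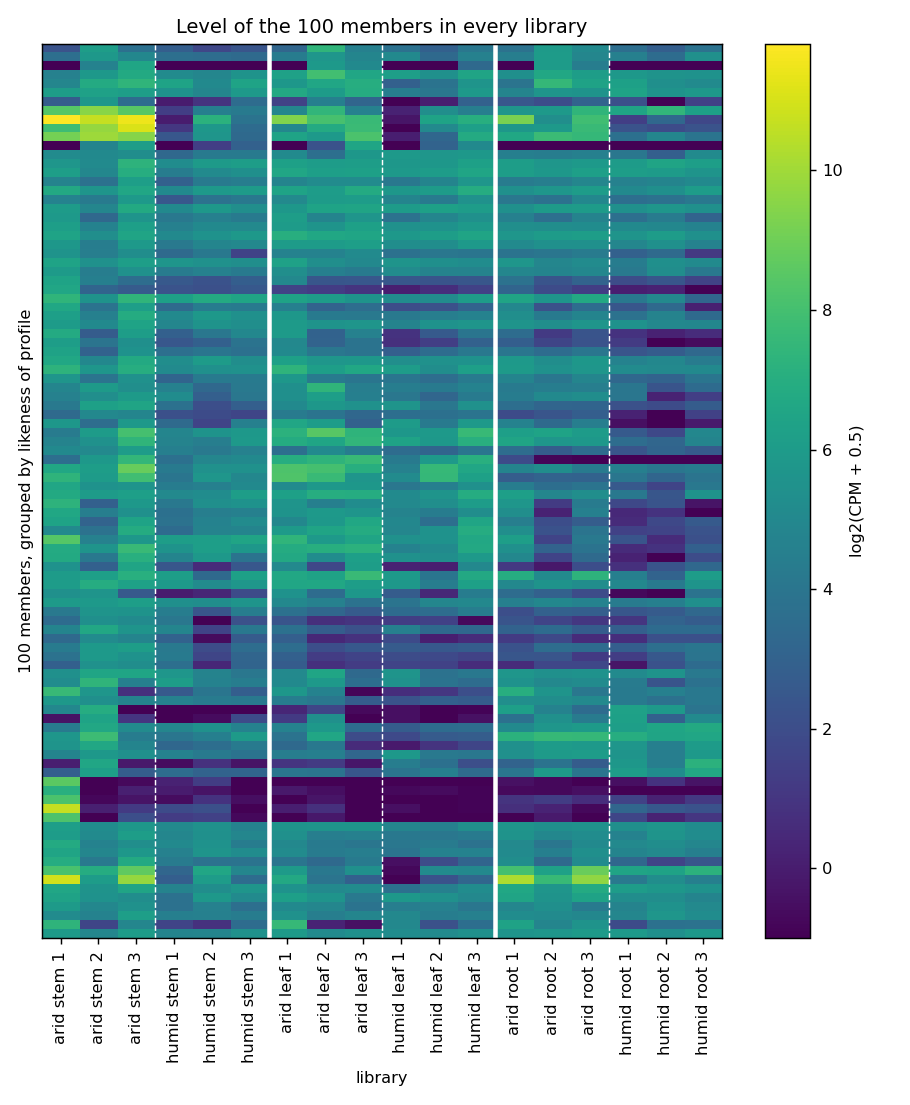
Level of the 100 members (rows, grouped by likeness of profile) in the 18 libraries (columns, arid left of humid within stem, leaf and root), as log2(CPM + 0.5) on the colour scale. A few rows are bright in all 3 arid stems and less so in the leaves and roots of the same seedlings, a block of 5 rows is bright in arid stem 1 alone, and most rows show moderate levels in all 18 libraries.

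The member with the largest gain was non_cod_Ag_48637. It reached 3594, 1626 and 2857 CPM in arid stems 1, 2 and 3, against 0.491, 143 and 14.3 CPM in humid stems. In leaves it had 678, 271 and 205 CPM in the arid forest, against 0.329, 84.8 and 129 CPM in the humid forest. In roots it had 593, 40.1 and 232 CPM in arid seedlings, against 2.10, 9.14 and 2.87 CPM in humid seedlings. The forests did not overlap in any of the 3 organs, and it had the highest arid leaf mean of the members. The spread among humid seedlings was wide, and the humid seedling 1 had the lowest level of all 3 in every organ. In the fit its log2 fold change was 6.08 (SE 1.73) in roots and 2.46 (SE 1.44) in leaves, and neither passed the adjusted threshold of 0.05 in edgeR's quasi-likelihood test (adjusted p = 0.0896 and 0.849).

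The next members also reached high levels in arid stems. Non_cod_Ag_44218 had 228, 884 and 2200 CPM in arid stems, against 1.64, 54.1 and 10.8 CPM in humid stems. In roots it had 54.6, 59.9 and 202 CPM in arid seedlings, against 4.31, 3.26 and 4.37 CPM in humid seedlings. Its leaf levels overlapped, with 30.04, 115 and 215 CPM in the arid forest and 0, 32.3 and 76.0 CPM in the humid forest. Arid seedling 3 was the highest for it in all 3 organs. Non_cod_Ag_37373 was the most even of the first 4 members across arid stems, at 562, 980 and 721 CPM against 5.07, 50.3 and 9.88 CPM in humid stems. Its arid roots had 99.8, 212 and 182 CPM, against 12.6, 29.4 and 14.5 CPM in humid roots.

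The third member, non_cod_Ag_47319, had high levels in arid roots as well as arid stems. It had 1941, 67.3 and 883 CPM in arid stems and 6.55, 66.8 and 11.2 CPM in humid stems, so that arid stem 2 and humid stem 2 were nearly level. Its arid roots reached 1188, 196 and 821 CPM, against 17.5, 38.5 and 22.5 CPM in humid roots, the highest arid root mean of the members. Leaves held less, with 105, 14.8 and 7.08 CPM in the arid forest and 0, 4.20 and 8.90 CPM in the humid forest. Arid seedling 2 was the lowest of the arid seedlings in stem and root, and seedling 1 the highest in all 3 organs. The log2 fold change in roots was 4.87 (SE 1.42), with an adjusted p of 0.0973 in edgeR.

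Other members among the first 12 gained in stems with mixed behaviour elsewhere. Non_cod_Ag_46958 had 351, 742 and 361 CPM in arid stems and 2.13, 22.3 and 18.2 CPM in humid stems, while its roots overlapped at 52.6, 59.5 and 166 CPM in arid and 89.99, 175 and 77.1 CPM in humid seedlings. Non_cod_Ag_36969 had 276, 122 and 415 CPM in arid stems and 8.84, 96.3 and 28.7 CPM in humid stems. The groups were apart for both transcripts in stems, but only narrowly for the second. For non_cod_Ag_32033, arid stem 3 stood out with 450 CPM beside 97.8 and 69.7 CPM in arid stems 1 and 2, against 18.5, 43.8 and 44.2 CPM in humid stems. Non_cod_Ag_36928 had 162, 64.0 and 237 CPM in arid stems, against 15.5, 53.0 and 29.6 CPM in humid stems. Its roots ran the other way, at 6.48, 7.96 and 7.78 CPM in arid and 16.03, 8.48 and 14.8 CPM in humid seedlings, without overlap, although the log2 fold change of -0.78 (SE 0.65) did not pass (adjusted p = 0.619 in edgeR).

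Among the first 7 members, all 6 other than non_cod_Ag_20706 had their lowest humid stem level and their lowest humid leaf level in humid seedling 1, and 3 of the 6 had their lowest humid root level there. Over all 100 members, humid seedling 1 was the lowest of the humid seedlings for 54 in stems, 52 in leaves and 32 in roots. Low levels in 1 seedling therefore form part of the low humid means of the leading members. This count was made after their values were seen.

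**Figure D2:**
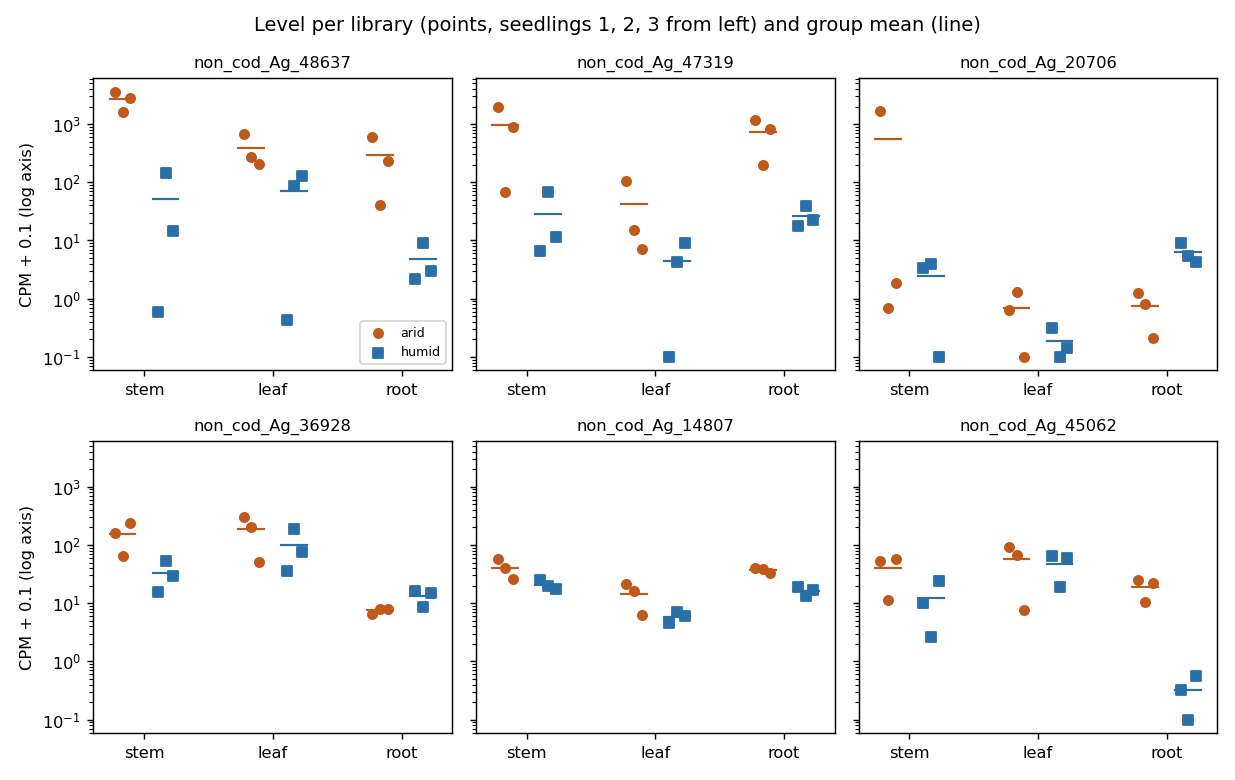
Level per library (points, seedlings 1, 2 and 3 from the left) and group mean (lines) of 6 members in arid (orange, left) and humid (blue, right) stems, leaves and roots, as CPM + 0.1 on a log axis. The upper panels show 2 members that are high in arid stems and arid roots and 1 that exceeds 1000 CPM in arid stem 1 alone, and the lower panels show 3 members with smaller differences, of which non_cod_Ag_45062 differs most in roots.

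A group of 5 members had at least 90% of their CPM over all 18 libraries in 1 library, and in each case it was arid stem 1. Non_cod_Ag_20706 had 1656 CPM there, against at most 8.96 CPM in any other library. Non_cod_Ag_5364 had 386 CPM, non_cod_Ag_48809 had 296 CPM, non_cod_Ag_32842 had 291 CPM and non_cod_Ag_21465 had 136 CPM in the same library. Together they made up 0.277% of the reads of arid stem 1. The leaf and the root of that seedling did not share the level, since non_cod_Ag_20706 had 0.539 CPM in its leaf and 1.14 CPM in its root. Arid stems 2 and 3 held 0.584 and 1.80 CPM of it. The share of the 18 libraries' CPM that fell on arid stem 1 was between 95.6% and 98.7% for these 5 members, and the highest share of 1 library for any other member was 65.0%. Their mean gain describes 1 library and not the arid stems.

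The other members also drew on single arid stems to unequal degrees. Of all 100, 58 had at least 50% of their summed arid stem CPM in 1 of the 3 stems, 20 of them in stem 1, 15 in stem 2 and 23 in stem 3. At least 80% lay in 1 stem for 13 members, of which 8 were in stem 1, 5 in stem 2 and 0 in stem 3. Arid stem 2 held at least 90% for 2 members: non_cod_Ag_32063, with 93.8 CPM in arid stem 2 beside 0.560 and 0.419 CPM in arid stems 1 and 3, and non_cod_Ag_32091, with 87.3 CPM beside 0.280 and 1.44 CPM. Neither was high in humid stems, where the highest values were 1.25 and 3.26 CPM. Both stood higher in humid roots, at 55.1, 21.9 and 148 CPM for non_cod_Ag_32063 and 77.2, 7.18 and 34.1 CPM for non_cod_Ag_32091. All 3 arid stems lay above all 3 humid stems for 32 members, where 3.23% of the 40897 transcripts tested did so. Since the rule chose on this contrast, nothing is read from that share. Another 52 members had 2 arid stems above all humid stems, and 16 had 1.

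**Figure D3:**
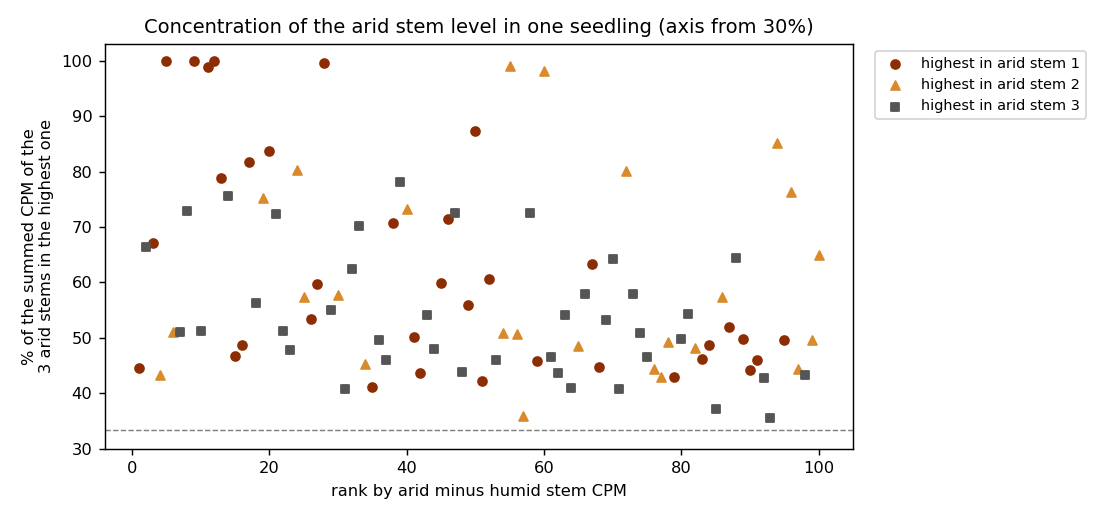
Share of the summed CPM of the 3 arid stems that fell on the highest of them (vertical axis, in %, starting at 30%) for the 100 members by rank (horizontal axis), with the symbol giving which arid stem was highest. The dashed line marks equal shares. The 5 points of arid stem 1 and 2 of arid stem 2 lie above 90%, and no point of arid stem 3 does.

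The rule was also applied with 1 arid stem left out, and the rows it picked were then read in that stem. When the rule was applied without arid stem 1, 43 of the 100 rows it picked lay above all 3 humid stems in arid stem 1, where 24.2% of 13139 candidate rows did. Without arid stem 2 the count was 31, beside 17.7% of the candidates, and without arid stem 3 it was 70, beside 18.5%. The picked rows had a median of 24.8 CPM in arid stem 1, against a median humid stem mean of 15.9 CPM, and of 38.4 CPM in arid stem 3, against 16.2 CPM. In arid stem 2 their median was 26.7 CPM, below the median humid stem mean of 28.9 CPM. The rows picked shared 64, 75 and 72 transcripts with the members. The humid stems entered both the choice and the count, so that low humid stem values favour these counts.

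Counts over all members put more of them highest in stem in the arid forest than in the humid forest. By group mean, 67 members were highest in stem, 26 in leaf and 7 in root in arid seedlings, whereas 31 were highest in stem, 44 in leaf and 25 in root in humid seedlings. The arid stem level that the rule used sets much of the first count. Among the 13040 other non_cod transcripts tested, 33.1% were highest in stem in arid and 51.3% in humid seedlings. All these counts used CPM without further scaling, and TMM raised arid over humid stems by 0.46 on the log2 scale. The humid profiles of the members were otherwise varied. By humid means, with limits chosen after the values were seen, 21 members were at least 4-fold higher in leaf than in root, 11 were at least 4-fold higher in root than in leaf, 5 were at least 2-fold higher in stem than in both, and 58 lay within these limits. The remaining 5 were the single-library members.

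The members' share of reads was higher in arid seedlings in all 3 organs. In stems it was 1.54%, 0.862% and 1.41% in arid seedlings, against 0.204%, 0.272% and 0.262% in humid seedlings. In leaves it was 0.598%, 0.551% and 0.495% in the arid forest, against 0.229%, 0.256% and 0.407% in the humid forest. In roots it was 0.545%, 0.348% and 0.512% in arid seedlings, against 0.234%, 0.226% and 0.257% in humid seedlings. Group means were 1.27 ± 0.360% and 0.246 ± 0.0364% in arid and humid stems, 0.548 ± 0.0517% and 0.297 ± 0.0957% in arid and humid leaves, and 0.468 ± 0.105% and 0.239 ± 0.0158% in arid and humid roots (SD, n = 3 each). Without the first 6 members, the arid means were still higher, at 0.615% and 0.232% in arid and humid stems, 0.471% and 0.280% in arid and humid leaves, and 0.330% and 0.222% in arid and humid roots. In such tissue samples, fewer cells of a type and less RNA per cell cannot be told apart. The leaves and roots came from the same seedlings as the stems that chose the members, and the ceiling limited humid levels but not arid ones, which favours a positive difference in both organs. When the rule was applied with no row left out, 72 of 99 tested rows were positive in leaves and 75 of 99 in roots, and 10 and 32 of the 100 rows had all arid leaves or all arid roots above the humid ones.

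The 150 abundant rows that the rule left out are given beside the members as a description. They took 7.28%, 7.45% and 11.3% of the reads in arid stems, against 4.15%, 2.48% and 3.59% in humid stems. In leaves they took less in arid seedlings, with means of 3.71% and 4.24% in arid and humid leaves, without overlap. In roots the means were 3.68% and 4.38% in arid and humid seedlings, and the groups overlapped. All non_cod transcripts together took 14.6% of reads in arid and 9.17% in humid stems. Of this difference the members made up 18.8% and the 150 left-out rows 96.8%. The other non_cod transcripts took 4.67% in arid and 5.52% in humid stems and so offset 15.6% of it. These are shares of reads without further scaling, so a lower share need not be a lower level. The members thus were the smaller part of the non_cod excess in arid stems. They also had higher means in arid leaves and roots, where the left-out rows had lower ones. The left-out rows were chosen for a high mean over the humid libraries, leaves and roots included. The members had a ceiling on humid levels and none on arid levels. Both choices favour this contrast, so nothing is read from it.

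**Figure D4:**
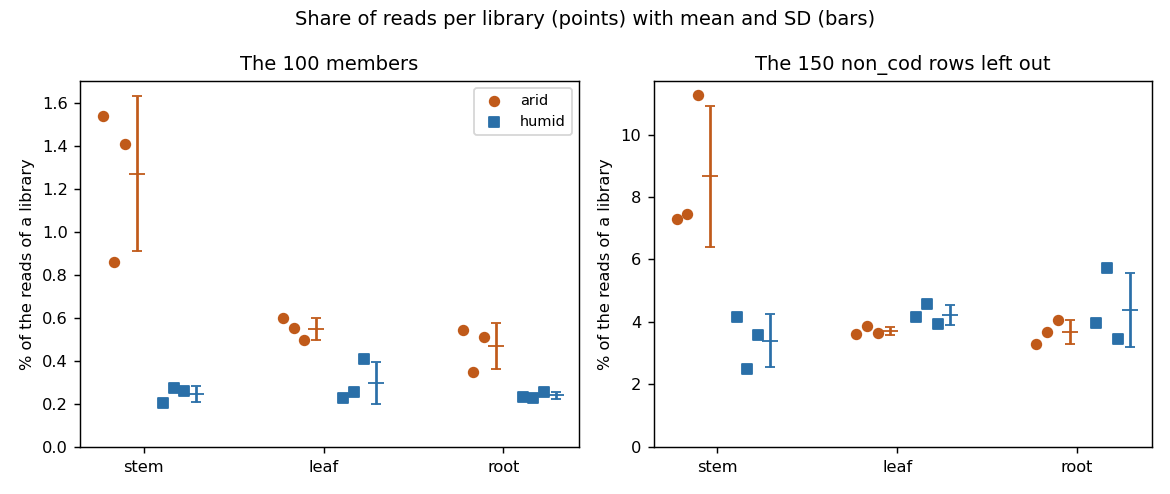
Share of each library's reads (vertical axes, in %, with separate scales) on the 100 members (left) and on the 150 abundant non_cod rows left out (right), in arid (orange circles) and humid (blue squares) stems, leaves and roots; points are libraries and bars show the mean and SD (n = 3). For the members the arid libraries lie above all humid ones in all 3 organs, and for the left-out rows in stems only.

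Leaves were compared to ask whether the stem gain was matched in an organ whose arid levels the rule had not used. Of the members, 99 had enough reads to enter the test, and non_cod_Ag_21465 did not. In leaves, 89 of the 99 had a positive log2 fold change and 9 a negative one, while non_cod_Ag_5364 had no read in any leaf. The positive share was 89.9% for the members and 52.7% for all transcripts tested. The median log2 fold change was 0.77 (quartiles 0.35 and 1.70), beside 0.04 (quartiles -0.41 and 0.45) for all transcripts tested and 0.00 for the other non_cod transcripts. Most members thus shared this direction, and the shift was modest. The ceiling on humid levels favours positive values here. With no row left out by the rule, 72 of 99 tested rows were positive in leaves, with a median of 0.67. The leaves also came from the seedlings whose stems chose the members, so the members are not separate evidence. No member passed an adjusted p of 0.05 in edgeR, where 0 of 40897 transcripts (0%) did, the smallest adjusted p of all being 0.0588. At an unadjusted p under 0.05, 18 members were higher and 1 was lower, or 19.2% of the members beside 6.60% of all transcripts, and DESeq2 called 1 member and 0.819% of all.

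The members with the smallest leaf p-values, none of which passed, show the size of these differences. Non_cod_Ag_14807 had 21.3, 16.2 and 6.19 CPM in arid leaves, against 4.39, 6.99 and 6.03 CPM in humid leaves, and arid leaf 3 fell within the humid range. Its log2 fold change was 1.35 (SE 0.36) in leaves, with an adjusted p of 0.374 in edgeR. Its roots were apart, at 39.5, 39.0 and 32.5 CPM in arid and 18.7, 13.1 and 16.9 CPM in humid seedlings, and so were its stems, at 56.4, 40.5 and 25.9 CPM in arid and 24.6, 19.6 and 17.7 CPM in humid seedlings. Non_cod_Ag_199 had 105, 65.6 and 122 CPM in arid leaves, against 21.4, 16.4 and 57.6 CPM in humid leaves, a log2 fold change of 1.63 (SE 0.46, adjusted p = 0.406 in edgeR). Its roots did not show this, with 27.4, 51.7 and 47.6 CPM in arid and 86.7, 47.3 and 56.9 CPM in humid seedlings. Non_cod_Ag_25537 had 9.83, 16.9 and 1.01 CPM in arid leaves, against 0.439, 1.40 and 2.74 CPM in humid leaves (log2 fold change 2.58, SE 0.81, adjusted p = 0.470 in edgeR), and the groups overlapped.

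All 3 arid leaves exceeded all 3 humid leaves for 16 members, where 5.15% of the transcripts tested did so. The reverse held for 1 member, non_cod_Ag_32063, where 8.28% of all transcripts did so. That member had 1.48, 1.85 and 0.357 CPM in arid leaves and 21.3, 12.6 and 3.67 CPM in humid leaves. Humid leaf 3 was the highest of the humid leaves for 65 members, and without it the median log2 fold change in leaves was 1.18. The size of the leaf shift thus moved with 1 library, while its direction did not.

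In roots 3 members were called, all higher in arid seedlings, where 1.37% of all transcripts were called higher, 0.249% lower and 1.62% in either direction. Non_cod_Ag_45062 had 25.02, 10.3 and 21.9 CPM in arid roots, against 0.221, 0 and 0.453 CPM in humid roots. It was close to undetected in humid roots and clearly present in every arid root. The log2 fold change was 6.14 (SE 1.22, adjusted p = 0.0189 in edgeR). In leaves it was present in both forests, at 93.7, 68.3 and 7.44 CPM in arid and 63.9, 18.7 and 60.5 CPM in humid seedlings, with arid leaf 3 the lowest. Leaf levels overlapped, and the log2 fold change there was 0.19 (SE 0.83, adjusted p = 1 in edgeR). In stems it had 53.7, 11.4 and 56.9 CPM in arid and 10.1, 2.57 and 23.7 CPM in humid seedlings.

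Non_cod_Ag_11769 was the second, with 39.9, 0.659 and 23.5 CPM in arid roots and 0.884, 1.31 and 0 CPM in humid roots. Arid root 2 lay within the humid range, so that the call rested on arid roots 1 and 3. Its log2 fold change was 5.02 (SE 1.11, adjusted p = 0.0321 in edgeR). In leaves all arid libraries were higher, at 47.3, 57.9 and 51.3 CPM against 26.2, 20 and 37.9 CPM in humid leaves, with a log2 fold change of 0.94 (SE 0.85) that did not pass. Non_cod_Ag_48607 was the third, with 89.7, 50.2 and 108 CPM in arid roots, against 16.8, 32.3 and 8.75 CPM in humid roots. These did not overlap, and the log2 fold change was 2.19 (SE 0.49, adjusted p = 0.0352 in edgeR). In stems it had 168, 46.7 and 168 CPM in arid and 76.6, 114 and 91.9 CPM in humid seedlings, with arid stem 2 below all humid stems.

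At an unadjusted p under 0.05, 26 members were higher and 0 lower in arid roots, or 26.3% of those tested beside 15.5% of all transcripts. As in leaves, these shares were not matched for level. DESeq2 called 19 members and 5.92% of all, whereas limma voom called 0 members with or without the seedling as a block. With that block the adjusted p in limma was 0.357 for non_cod_Ag_45062, 0.508 for non_cod_Ag_11769 and 0.0981 for non_cod_Ag_48607. The median log2 fold change was 0.64 (quartiles -0.06 and 1.77), beside 0.05 (quartiles -0.55 and 0.66) for all transcripts and -0.04 for the other non_cod transcripts. It was positive for 72 members and negative for 26, and non_cod_Ag_46322 had no read in roots. The positive share of 72.7% stood beside 52.4% of all transcripts. With the 2 members whose humid roots held no read set to a bound at 3 counts over the group, and 1 more at that floor in both forests left out, the median in roots was 0.67. Without arid root 1, and likewise without humid root 3, no member was called, and without arid root 2 there were 5.

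All arid roots exceeded all humid roots for 29 members, where 10.9% of all transcripts tested did so, and lay below them for 5 members, where 11.8% did. The 5 were non_cod_Ag_20706, non_cod_Ag_36928, non_cod_Ag_48809, non_cod_Ag_32063 and non_cod_Ag_47576, of which 2 are single-library members. Humid profile and root difference went together, as a description only, because the humid roots enter both. Members that were higher in leaf than in root in humid seedlings had a median root log2 fold change of 2.66, and 19 of 21 were positive. Members higher in root than in leaf had a median of -0.23, with 5 of 11 positive. For the 58 members within the limits the median was 0.44.

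Arid roots also held unequal levels of transcripts typical of shoots, given here beside the root values. Leaf-typical transcripts were the 230 with at least 50 CPM in humid leaves and 20-fold less in humid roots, and the 100 stem-typical ones were chosen likewise on humid stems; 3 members were among these. For each humid root the choice was made on the other seedlings. Leaf-typical transcripts stood in arid roots 1, 2 and 3 at a median of 51.1%, 1.71% and 12.7% of the level in the leaf of the same seedling. In humid roots 1, 2 and 3 the medians were 2.11%, 1.28% and 0.466%. Stem-typical transcripts stood at 50.3%, 6.93% and 31.4% of the own stem in arid roots and 2.36%, 1.46% and 0.645% in humid roots. The 21 members higher in leaf than in root in humid seedlings stood in arid roots at 33.4%, 16.7% and 9.55% of the own stem. In humid roots they stood at 20.9%, 6.31% and 16.5%, so that the forests overlapped. The divisor was the stem level that chose the members, which lowers the arid percentages, and the humid roots chose the 21. Nothing is therefore read from this overlap, and the next values share that divisor. Of the called members in arid roots 1, 2 and 3, non_cod_Ag_45062 stood at 46.7%, 90.5% and 38.6% of the own stem, non_cod_Ag_48607 at 53.4%, 108% and 64.0%, and non_cod_Ag_11769 at 40.9%, 3.41% and 54.6%. The part of the shoot-typical transcripts in the root differences was not tested.

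Of the members, 7 were higher in every arid leaf and every arid root than in the humid ones, where 1.33% of the transcripts tested were, and 3 of the 7 were also apart in stems. These 3 were non_cod_Ag_48637, given above, non_cod_Ag_40419 and non_cod_Ag_25150. Non_cod_Ag_40419 had 70.2, 14.6 and 40.5 CPM in arid stems, against 5.07, 7.24 and 14.2 CPM in humid stems. Its leaves had 30.7, 8.09 and 14.4 CPM in the arid forest, against 1.21, 2.10 and 7.34 CPM in the humid forest. Its roots had 6.61, 2.69 and 4.38 CPM in arid seedlings, against 1.88, 0 and 0.151 CPM in humid seedlings. Arid seedling 1 was the highest and arid seedling 2 the lowest in each organ. Non_cod_Ag_25150 was more even, with 48.1, 21.6 and 37.8 CPM in arid stems and 10.3, 16.7 and 2.47 CPM in humid stems. Its leaves had 25.3, 24.7 and 34.9 CPM in the arid forest and 13.1, 16.6 and 15.2 CPM in the humid forest, and its roots 14.1, 15.9 and 19.4 CPM in arid and 7.52, 10.1 and 1.66 CPM in humid seedlings. The other 4 were non_cod_Ag_45382, non_cod_Ag_24609, non_cod_Ag_24806 and non_cod_Ag_26926. None of the 7 passed the adjusted threshold in leaf or root in edgeR, and they were singled out after their values were seen.

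**Figure D5:**
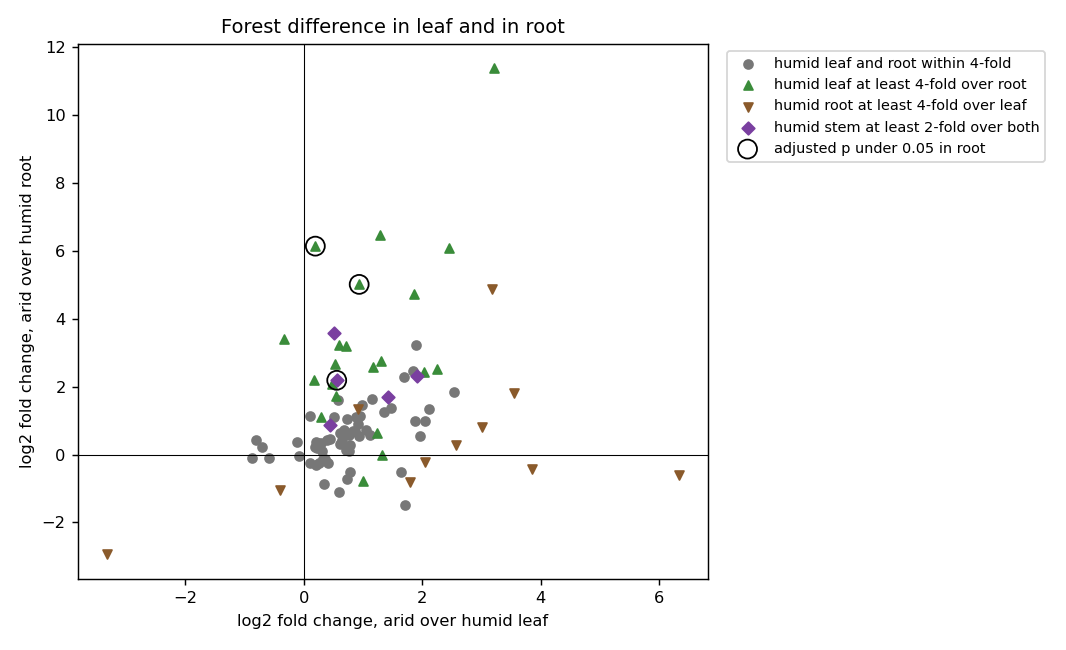
Log2 fold change of arid over humid leaf (horizontal axis) and arid over humid root (vertical axis) from edgeR for the tested members other than the single-library ones; symbols give the humid profile and circles mark an adjusted p under 0.05 in roots. Most points lie right of 0, those higher in humid leaf than root lie mostly above 0, and the 3 circled points lie at 2.19, 5.02 and 6.14 on the vertical axis. Points with a group at 0 reads, such as the highest, are fitted values that depend on the prior count.

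The difference between the leaf and the root effect of the forest was tested directly, with leaf minus root. No member passed in edgeR, where 0% of all transcripts did. The smallest adjusted p among members was 0.214, for non_cod_Ag_45062 with a difference of -5.95 (SE 1.47) on the log2 scale. At an unadjusted p under 0.05 there were 10 members, beside 7.69% of all transcripts, and DESeq2 called 2 members and 1.09% of all. A difference between leaf and root in how the members followed the forest was thus not shown for any single member in edgeR.

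Within each forest, leaf and root levels were compared to see where else the members were expressed. In arid seedlings 4 members were called, all higher in leaf, where 3.52% of all transcripts were called, 1.91% higher in leaf and 1.61% higher in root. Non_cod_Ag_36928 had 308, 206 and 51.0 CPM in arid leaves, against 6.48, 7.96 and 7.78 CPM in arid roots, a log2 fold change of 4.74 (SE 0.73, adjusted p = 0.00467 in edgeR). Non_cod_Ag_32033 had 299, 259 and 129 CPM in arid leaves, against 26.9, 38.8 and 18.5 CPM in arid roots, a log2 fold change of 3.11 (SE 0.74, adjusted p = 0.0323 in edgeR). Leaves exceeded roots in every arid seedling for both. Non_cod_Ag_31099 had 126, 161 and 201 CPM in arid leaves, against 3.30, 0.0549 and 0 CPM in arid roots, and no read in humid roots. Non_cod_Ag_16996 had 33.3, 53.9 and 44.8 CPM in arid leaves, against 11.9, 8.56 and 8.33 CPM in arid roots. With the seedling as a replicate block, which compares leaf and root within each seedling, 22 members were called, 17 higher in leaf and 5 higher in root, beside 6.58% of all transcripts, 3.66% higher in leaf and 2.92% higher in root. DESeq2 called 20 members, beside 9.65% of all transcripts.

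In humid seedlings 21 members were called, 16 higher in leaf and 5 higher in root, where 11.9% of all transcripts were called, 7.69% higher in leaf and 4.25% higher in root. The 4 members called in arid seedlings were among them. For non_cod_Ag_45062 the log2 fold change of humid leaf over humid root was 7.62 (SE 1.25, adjusted p = 0.00126 in edgeR). For non_cod_Ag_25537 it was -4.76 (SE 0.87, adjusted p = 0.0024 in edgeR), with 52.7, 22.8 and 65.3 CPM in humid roots. With the seedling block 34 members were called, 23 higher in leaf and 11 higher in root, beside 14.5% of all transcripts, 8.82% higher in leaf and 5.65% higher in root. DESeq2 called 30 members, beside 18.1% of all transcripts. The members thus included transcripts higher in leaf than in root and transcripts higher in root than in leaf in humid seedlings. Whether arid and humid seedlings differ in the number of such members was not tested, and arid root 1 held the raised shoot-typical levels given above.

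The highest seedling was compared between organs. The arid seedling with the highest stem level was also the highest in leaf for 54 of 99 members with reads and in root for 51 of 99, where 46.9% and 42.9% of all transcripts tested matched. In humid seedlings the match was 55 of 96 in leaf and 45 of 95 in root, beside 41.3% and 41.0% of all transcripts. These shares were not tested against each other, and the arid match uses the arid stem values that chose the members. The members had higher levels than most transcripts, with a median over members of 30.002 CPM averaged over leaves and roots and 5.10 CPM over all tested, so that counting noise differs between the sets. The humid match was computed after the values were seen.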

How the data were processed

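The authors deposited raw read counts per transcript for 18 libraries, in 1 table and in 18 single files that held equal values, per the file headers. The submitters' processing notes name Bowtie 0.12.2 and edgeR without a role. Neither counting program nor reference transcriptome is given in the sources used here. Per the labels' protocols, libraries were made from 0.5 µg of total RNA with a TruSeq kit and read as pairs on an Illumina GA IIx. Reads shared with near-identical transcripts could not be assessed.

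CPM used column totals without further scaling. Tests used edgeR 4.0.16 (quasi-likelihood, TMM scaling) in R 4.3.3 on all 18 libraries, with a mean per group, filtering by group at 10 counts and at 15 in total, which left 40897 transcripts, and Benjamini-Hochberg adjustment over all of them. DESeq2 1.42.0, limma 3.58.1 and other scalings were alternatives. TMM raised the log2 ratio of arid over humid stems by 0.46 against unscaled CPM, and by 0.05 in leaves and 0.07 in roots. Organs with the same forest and number were taken as 1 seedling, as the series' design text describes. Their deviations from the group means correlated across transcripts with a median of 0.208 (from -0.075 to 0.343), and 16 of 18 pairs exceeded 0.1.

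Named are the 12 members with the largest stem gain, called members in leaf and root (or, where none, the 3 with the smallest p), the rows at the threshold, and the highest means in arid leaf and root. Others were named after their values were seen. The members and lists were chosen with earlier results of these data known. P-values measure the spread within groups, pooled for each transcript over all 18 libraries. That spread includes the stems that chose the members. Organs of the same seedling entered as separate libraries, except where the seedling block is named. With root libraries only, 4 members were called between forests, mostly others than in the fit on all libraries. With leaf libraries only, no member was called. The floor of 3 counts covers counting error only.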

Additional observations from a re-analysis of the deposited data

How the results depend on the processing

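Leaving out stem libraries in turn, the rule picked between 64 (without arid stem 1) and 90 of the 100 members, and with none of the abundant rows left out it picked 41. The median log2 fold changes of the rows so picked, computed after seeing the data, were 0.67 in leaves and 0.58 in roots. Members called in leaves numbered 1 with DESeq2. Those called in roots numbered 19 with DESeq2, 0 with limma voom, 0 with the seedling as replicate block in voom, and 0 to 5 when root libraries were left out in turn. For the leaf minus root difference they numbered 2 with DESeq2, 0 with the replicate block and 0 to 1 with a library left out. Between leaf and root they numbered 20 with DESeq2, 22 with the replicate block and 1 to 5 with a library left out in the arid forest, and 34 with the block and 14 to 21 with a library left out in the humid forest. The median leaf log2 fold change ranged from 0.61 to 1.18 and the root median from 0.60 to 0.75 with a library left out. After TMM scaling the humid stem share was 0.206%. Among named transcripts, the direction turned for non_cod_Ag_45062 in leaves (-0.32 with voom, -0.31 with voom and the block, and from -0.24 to 0.71 with a library left out), non_cod_Ag_46958 in roots (from -0.88 to 0.15) and non_cod_Ag_25537 in roots (from -0.046 to 0.67). The cause was not tested. The block changed no other called count. In the shallowest library, a level under 0.979 CPM could not be told from 0.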
